A study of Mus musculus with 76 samples.

Results

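The libraries of thymic cells labelled CD4 T cells and taken at d120 (day 120) were compared by genotype. They are 6 of the 76 libraries of the series and were chosen by their titles, 3 from SOD1-G93A mice, called SOD1 here, and 3 from wild-type mice, called WT. The mutant mice model amyotrophic lateral sclerosis (ALS), a disease of motor neurons, and carry a mutant human SOD1 transgene under its own promoter, which is active in most tissues and not in T cells alone. The strain field of the labels reads SOD1-G93A for all 6 libraries, the WT ones included. Thymus tissue was digested, cells were sorted by flow cytometry after staining, and cDNA was made with a SMARTseq kit for small amounts of RNA. The 5 CD4 libraries of d30 (3 SOD1, 2 WT) and the 6 libraries of sorted regulatory T cells (Treg) of d120 (3 of each genotype) served as comparisons. The labels do not say whether the libraries of a group came from separate animals, so each p-value measures only the spread between these libraries.

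The thymus makes T cells from precursors that first carry neither CD4 nor CD8, then both, and finally 1 of the 2 coreceptors. CD4 binds MHC class II and marks cells that become helper or regulatory T cells, while CD8 binds MHC class I and marks future cytotoxic cells. Thymocytes whose receptor binds self antigen too strongly die or become regulatory cells, and mature cells leave through the receptor S1PR1. SOD1 encodes the cytosolic enzyme that turns superoxide into peroxide, and its G93A form misfolds and is the basis of the ALS model. The series title asks what part the thymus plays in this disease, and the comparison below asks which transcripts of the cells labelled CD4 differ between the genotypes at the older age.

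The SOD1 libraries 1 to 3 held 1548594, 2056070 and 1563260 counts and the WT libraries 2239878, 2166145 and 837050, with 11983 to 16804 genes at 1 count or more. At d30 the totals were 2346044 to 14047347. Each library also has a column number in the deposited table, and these numbers split the libraries into 2 sets that each hold both genotypes. Columns 1 to 3 hold SOD1 1, SOD1 2 and WT 1, and columns 4 to 6 hold SOD1 3, WT 2 and WT 3. The set is thus partly confounded with genotype, and a difference within a set rests on a single library on 1 side. The labels do not say what the numbers stand for. Rank correlation of log2 levels (Spearman, across 9204 genes, which are not independent replicates) was 0.81 to 0.88 among the 3 libraries of columns 1 to 3 and 0.73 to 0.75 among those of columns 4 to 6. Between the sets it was 0.64 to 0.79. By genotype it was 0.76 to 0.86 within SOD1, 0.64 to 0.73 within WT and 0.70 to 0.88 between them. WT 1 was closest to SOD1 2, at 0.88, and stood further from its own group than any other library, at 0.64 and 0.70. Levels below are in CPM, counts relative to the size of each library after scaling by the trimmed mean of M values (TMM). A change is the log2 fold change of SOD1 over WT ± its standard error. Unless another fit is named, standard errors and p-values come from a fit that also holds the d30 libraries.

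The label was checked against marker genes. Levels per kilobase of all annotated exons allow a rough comparison of genes. They stood at 23.2, 24.9 and 22.5 CPM per kb for Cd4 in SOD1 1 to 3 and at 11.03, 35.5 and 51.6 in WT 1 to 3. Cd8a, the other coreceptor, stood at 70.5, 54.0 and 98.3 CPM per kb in SOD1 and at 68.9, 39.4 and 58.8 in WT, above Cd4 in each of the 6 libraries. Cd8b1, its partner chain, stood at 155, 194 and 113 and 212, 77.6 and 52.1 CPM per kb, also above Cd4 in each library, though only just in WT 3. Without division by length Cd8b1 was above Cd4 in SOD1 1 to 3 and WT 1. It was below Cd4 in WT 2 (115 against 143 CPM) and in WT 3 (77.2 against 208 CPM), and Cd8a was level with Cd4 in WT 2. Zbtb7b, the factor that commits thymocytes to the CD4 lineage, had 10 counts over all 6 libraries and was not tested, while Runx3, the factor of the CD8 lineage, stood at 18.0, 19.0 and 16.9 and 12.8, 30.5 and 32.4 CPM per kb. The coreceptor and lineage genes therefore go against a pure CD4 single-positive population, and the libraries are called those labelled CD4. The T cell receptor chain Cd3e stood at 104, 106 and 106 and 79.9, 81.2 and 102 CPM per kb, and Foxp3, the Treg factor, at 3.94, 3.62 and 4.18 and 1.94, 4.06 and 1.71. Among markers of other cells the cortical epithelial gene Psmb11 and the fibroblast collagens Col1a1 and Col3a1 had no count. Epcam, an adhesion gene of epithelial cells, stood at 106, 70.6 and 61.03 CPM in SOD1 1 to 3 and 88.3, 31.0 and 43.7 CPM in WT 1 to 3, and 12 of 20 thymic epithelial markers passed the filter on low counts. The same filter was passed by 2 of the 19 fibroblast and endothelial markers and 2 of the 17 erythroid and platelet genes listed. That filter took in the d30 libraries, so a marker could pass by its level there. Of the epithelial markers that passed, Prss16 had 6 counts at d120, all in WT 1, and Cxcl12 had 14, all in WT. Passing therefore does not show that a marker was present at d120. B cell and antigen-presenting cell genes were present and are described with the results they move with. By genotype Cd4 had a log2 fold change of -0.47 ± 0.44, Cd8a of 0.42 ± 0.36 and Cd8b1 of 0.43 ± 0.49, and none passed the test (edgeR quasi-likelihood test, Benjamini-Hochberg adjusted p of 0.951, 0.945 and 0.954). The sign of each turned between the column sets. Within columns 1 to 3 the differences were 1.12, -0.16 and -0.29, and within columns 4 to 6 they were -0.93, 1.03 and 0.83. With the column set as a covariate Cd4 was at 0.07.

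The genotype itself was read from Sod1 and from Gm8566, a processed pseudogene that lies on another chromosome and has no introns. The Sod1 gene spans chr16:90220754-90226329 and Gm8566 spans chr6:67205619-67206083, both on the plus strand (mm10, GENCODE vM21). Over the 465 bases of the Sod1 coding sequence, stop codon included, the pseudogene aligned without a gap and differed at 10 positions (97.8% identity). A short read can match both, so the split of counts between the pair is uncertain, and where reads of the human transgene were counted was not tested.

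Gm8566 stood at 133, 302 and 115 CPM in SOD1 1 to 3 and at 0.593, 0.442 and 0 CPM in WT 1 to 3. All SOD1 libraries lay far above all WT libraries, and Gm8566 rose by 8.71 ± 0.81 (mean ± SD 183 ± 103 against 0.345 ± 0.308 CPM, n = 3 each, edgeR quasi-likelihood, Benjamini-Hochberg adjusted p = 0.000691). Sod1 stood at 517, 973 and 552 CPM in SOD1 and at 212, 88.9 and 62.7 CPM in WT. The groups did not overlap, with WT 1 the highest of its group. The log2 fold change of Sod1 was 2.48 ± 0.51 and did not pass over all genes (adjusted p = 0.538, edgeR with Benjamini-Hochberg). Without WT 1 it was 3.16, and it passed (adjusted p = 0.0386).

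Gm8566 was the 1 gene called among the 12479 tested (0.00801%), in the test at an adjusted p under 0.05. Leaving out SOD1 3, WT 3 or WT 1 gave 2, 3 or 13 called genes, and leaving out any of the other 3 libraries gave Gm8566 alone. An unadjusted p under 0.05 was found for 776 genes (6.22%), and 5760 genes (46.2%) had a positive log2 fold change, with a median over all genes of -0.06. DESeq2 called 40 genes, 21 higher and 19 lower in SOD1, among them Gm8566 and Sod1, and limma voom called 0 with 531 at an unadjusted p under 0.05. The biological coefficient of variation was 0.706 among the libraries of d120 and 0.354 among those of d30. With the column set as a covariate, Gm8566 was again the 1 gene called (0.00801% of 12479 tested). It was also the 1 gene called in the 2 groups of d120 fitted alone (0.00983% of 10171 tested). Fitted alone, these groups had 142 genes at an unadjusted p under 0.05. The fit with 776 such genes also took its estimate of spread from the d30 libraries, which varied less. How far this accounts for the higher count was not tested.

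Gm8566 and Sod1 included, the groups did not overlap for 472 genes that lay higher in SOD1 (3.78%) and 350 that lay lower (2.8%). The 15 of each direction with the smallest p, a mean of 5 CPM or more and a gene symbol are described here, Sod1 being one of them. None of the other 29 passed with edgeR, at adjusted p of 0.339 to 0.632. DESeq2 called 25 of them, out of 40 genes it called among all 12479, and limma voom called 0. The 29 were picked from these same libraries by small p and separate groups, so the DESeq2 calls are not independent evidence for them. Acaca (chr11:84129672-84401651, mm10), the acetyl-CoA carboxylase that starts fatty acid synthesis, stood at 30.9, 35.3 and 68.4 CPM in SOD1 1 to 3 and at 2.96, 1.33 and 0 in WT 1 to 3, a log2 fold change of 4.81 ± 0.83. Prr14l (chr5:32789820-32854256) stood at 131, 92.7 and 72.1 against 16.0, 6.19 and 22.4 CPM, a log2 fold change of 2.77 ± 0.50. In each gene the lowest SOD1 library lay well clear of the highest WT library. Aff4, a scaffold of the complex that releases paused RNA polymerase II, stood at 541, 154 and 424 against 117, 65.0 and 109.7 CPM (1.94 ± 0.44). Its SOD1 libraries were widely spread, with SOD1 2 only a little above WT 1.

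Cdc27, a subunit of the anaphase-promoting complex that ends mitosis, stood at 138, 168 and 162 CPM in SOD1 and 78.8, 38.9 and 34.7 in WT (1.61 ± 0.38). Kif20b, a kinesin of cytokinesis, stood at 59.9, 71.7 and 21.6 against 17.2, 5.31 and 5.60 CPM (2.43 ± 0.59), and SOD1 3 and WT 1 were close. Cep250, a protein that holds centrosomes together, stood at 61.2, 113 and 58.0 against 9.48, 5.75 and 33.6 CPM (2.32 ± 0.61). WT 1 was the highest WT library for Cdc27 and Kif20b and WT 3 for Cep250. The other genes of this direction were Plxdc2, Sdc3 (a cell surface heparan sulphate proteoglycan), Zfp39, Casc4, Ufl1 (the ligase that attaches UFM1 to proteins), Bloc1s6, Foxn3 and Faf1, with log2 fold changes of 1.32 for Faf1 to 3.38 for Plxdc2. For Kif20b the sets themselves differed, with columns 4 to 6 lower (log2 difference -1.63, edgeR adjusted p = 0.0422, Benjamini-Hochberg).

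Lower in SOD1 were 2 zinc finger genes. Zfp382 (chr7:30121942-30134950) stood at 7.73, 9.93 and 8.63 CPM in SOD1 1 to 3 and 64.0, 46.4 and 41.4 in WT 1 to 3 (-2.53 ± 0.53), and Zfp865 at 10.3, 23.7 and 13.6 against 85.4, 38.5 and 210.4 CPM (-2.80 ± 0.62). The WT libraries of Zfp382 lay close together, while those of Zfp865 were widely spread with WT 3 highest. Serpinb1a, an inhibitor of neutrophil serine proteases, stood at 11.6, 13.2 and 9.25 against 55.7, 43.8 and 83.9 CPM (-2.42 ± 0.65), and Cit, the citron kinase of cytokinesis, at 3.22, 12.7 and 32.7 against 112, 61.9 and 101 CPM (-2.49 ± 0.64). SOD1 3 was the highest SOD1 library for Cit. Kmo, an enzyme of tryptophan breakdown, stood at 0, 2.21 and 0 against 11.9, 36.7 and 5.60 CPM (-4.52 ± 1.05), and Cyp27a1, a sterol hydroxylase, at 0, 0.552 and 0 against 2.37, 23.4 and 8.95 CPM (-5.70 ± 1.28). In these genes most SOD1 libraries were at or near 0, and WT 2 was highest. The integrin genes Itgax, a marker of dendritic cells, and Itgae, which binds E-cadherin, stood at 7.73, 8.27 and 9.25 against 17.8, 38.9 and 35.8 CPM (-1.87 ± 0.51) and at 23.8, 17.1 and 20.3 against 29.6, 134 and 51.5 CPM (-1.82 ± 0.50). For Itgae, SOD1 1 and WT 1 were close, and WT 2 was highest. The summed level of myeloid and dendritic cell markers was also high in WT 1 and WT 2 (2209 and 2092 CPM) against 421 to 1017 CPM in SOD1, and was 394 CPM in WT 3. Its part in the difference of Itgax, a member of that list, and of the other genes was not tested. The other 7 were Scrn3, Etv5, Glt8d1, Abca5, Arhgap39, Zfyve26 and Dpy19l3, at log2 fold changes of -5.68 for Scrn3 to -1.69 for Dpy19l3.

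**Figure D1:**
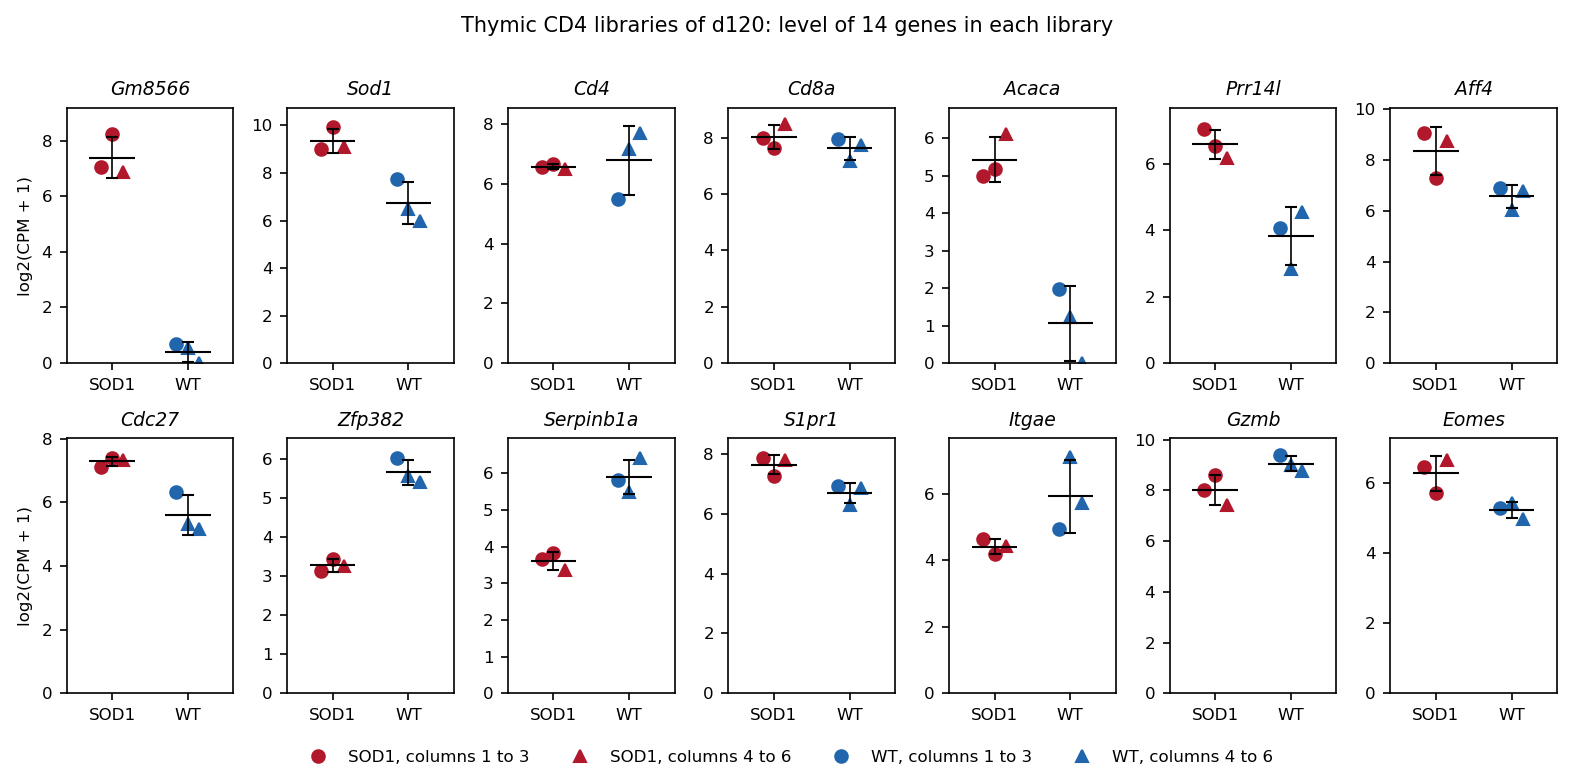
Level of 14 genes in each of the 6 CD4 libraries of d120, as log2(CPM + 1) on the vertical axis, with SOD1 in red and WT in blue, circles for columns 1 to 3, triangles for columns 4 to 6, and bars for the mean ± SD of 3 libraries. The groups are apart for Gm8566 and for the other genes shown except Cd4 and Cd8a, while Gm8566 alone passed the test.

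The same genes were read at d30 and in Treg. The d30 libraries entered the fit that ranked the genes, through its filter, scaling and estimate of spread, and the Treg libraries did not. In CD4 libraries of d30 the log2 fold change had the same sign as at d120 for 7 of the 14 genes higher in SOD1 and for 8 of the 15 lower. It ran from -0.68 to 0.33 for the former and from -1.81 to 0.48 for the latter. One of the 29, Abca5, a lipid transporter, had an unadjusted p under 0.05 at d30, with a log2 fold change of -1.81. In Treg libraries of d120 the sign was the same for 6 of the 14 and 11 of the 15, with log2 fold changes of -1.37 to 0.76 and -1.32 to 0.57. Acaca stood at -1.37 there, the opposite sign, and at 0.10 in CD4 libraries of d30. Gm8566 and Sod1 were at 11.06 and 3.95 at d30 and at 11.20 and 3.23 in Treg, so the genotype markers were on the same side in all 3 comparisons. In Treg they were the 2 genes called of 14824 tested (0.0135%).

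**Figure D2:**
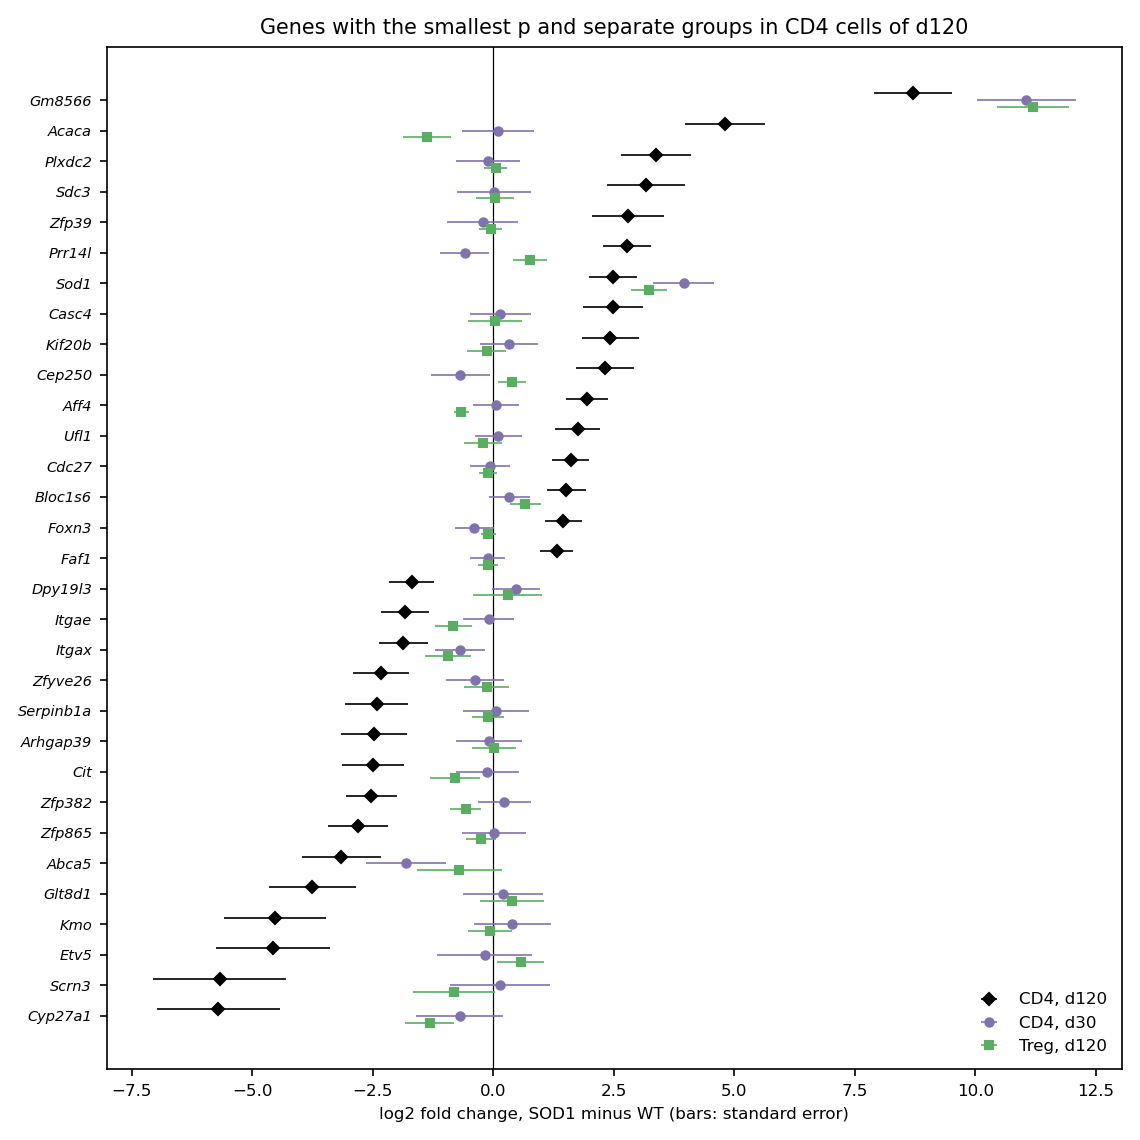
Log2 fold change of SOD1 over WT with its standard error for Gm8566, Sod1 and the 29 genes with the smallest p whose groups did not overlap in CD4 libraries of d120, with black diamonds for CD4 at d120, which chose the genes, purple circles for CD4 at d30 and green squares for Treg at d120. Away from Gm8566 and Sod1 the values of d30 and of Treg lie around 0, between -1.81 and 0.76.

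The difference between days was tested as an interaction. Of 12479 genes 0 passed (0%) with edgeR, with 277 at an unadjusted p under 0.05, and DESeq2 called 3 and limma voom 0. At d30 alone Gm8566 was the 1 gene called (0.00801%). The difference between CD4 and Treg libraries of d120 was tested in the same way over 12485 genes. Again 0 passed (0%), with 350 at an unadjusted p under 0.05, 7 by DESeq2 and 0 by limma voom. A genotype effect particular to d120 or to the CD4 label was thus not detected at this depth, and the tests do not show that the effects are alike.

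Gene groups were described from 37 lists of cell type and pathway genes. They held 719 tested genes, of which 0 passed with edgeR, DESeq2 or limma voom, and 42 (5.84%) had an unadjusted p under 0.05, against 6.22% of all genes. A list is given by how many members had a positive log2 fold change and by its median, beside 46.2% and -0.06 over all genes. Genes of the CD4 lineage and of mature thymocytes had a median of 0.23, with 17 of 27 positive. S1pr1, the receptor for leaving the thymus, stood at 228, 153 and 221 CPM in SOD1 and 119.7, 77.9 and 115 in WT, a log2 fold change of 0.95 ± 0.32. The groups did not overlap, and the gene did not pass (edgeR adjusted p = 0.720, Benjamini-Hochberg). Runx1, a factor of early T cell development, stood at 179, 177 and 156 against 129.8, 67.2 and 103 CPM (0.77 ± 0.34) and Tox, needed for CD4 lineage cells, at 88.3, 128 and 192 against 43.3, 42.5 and 119.8 CPM (1.01 ± 0.48). For Tox, WT 3 lay between SOD1 1 and SOD1 2. Of the same list Il6ra, a cytokine receptor, lay on the other side at 3.87, 1.65 and 4.93 against 9.48, 29.2 and 6.72 CPM (-2.14 ± 0.84). Other genes of homing and egress did not pass either, with Ccr7 at 0.43 ± 0.44 and Klf2, the factor that drives S1pr1, at -0.22 ± 0.32. Klf2 stood at 166, 157 and 149 against 186, 171 and 195 CPM, without overlap and on the side opposite to S1pr1. The list of homing and egress receptors had a median of -0.16.

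Genes of the CD8 lineage lay on the lower side, with a median of -0.36 and 3 of 15 positive. Gzmb, granzyme B of cytotoxic granules, stood at 256, 393 and 173 CPM in SOD1 1 to 3 and 670.5, 511 and 439 in WT 1 to 3 (-0.98 ± 0.35). Every SOD1 library lay below every WT library, and the gene did not pass (edgeR adjusted p = 0.720, Benjamini-Hochberg). Cxcr3, a chemokine receptor of effector cells, stood at 9.66, 17.1 and 1.85 against 39.1, 23.4 and 26.9 CPM (-1.64 ± 0.78), also without overlap. Eomes, a factor of cytotoxic cells, lay on the other side at 86.3, 51.3 and 99.3 against 37.9, 41.6 and 30.2 CPM (1.10 ± 0.50), so the list held members on both sides. Over all 6 libraries the coreceptor genes Cd8a and Cd8b1 also lay on the higher side, at 0.42 and 0.43, with signs that turned between the column sets. Gzmb had been at 36.6 CPM in SOD1 and 32.0 CPM in WT at d30 (means of 3 and 2 libraries). The list's median was on the lower side in each of the 16 alternative fits, at -0.62 to -0.18, and within both column sets, at -0.47 and -0.89. These fits reuse the same libraries and are not independent. Markers of NK and innate-like T cells had a median of -0.10, and their factor Zbtb16 stood at 15.5, 8.27 and 1.23 against 14.2, 42.0 and 33.6 CPM (-1.85 ± 0.83).

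Genes of earlier stages gave no common direction. Double-positive thymocyte genes had a median of 0.07 (12 of 24 positive), a sign that turned in 5 of 16 alternative fits. Rmnd5a, part of a ubiquitin ligase, stood at 182, 188 and 134 against 85.4, 119.9 and 50.4 CPM (0.97 ± 0.36), and the recombinase gene Rag1 at 68.9, 215 and 6.17 against 32.0, 65.5 and 44.8 CPM (1.02 ± 0.82). SOD1 2 was the highest and SOD1 3 the lowest of the 6 libraries for Rag1. Cpa3, a carboxypeptidase of mast cells and early precursors, was found in WT 1 alone, at 122 CPM. Double-negative and progenitor genes had a median of -0.27, T lineage transcription factors of -0.08 and Notch pathway genes of 0.26. Within the last list Mfng, a sugar transferase that modifies Notch, stood at 39.3, 21.5 and 52.4 against 20.2, 5.31 and 7.83 CPM (1.75 ± 0.55) and the Notch target Hey1 at 22.5, 17.1 and 24.0 against 6.52, 8.40 and 0 CPM. Neither gene overlapped between the groups, and Notch1 itself did, at 23.2, 41.9 and 149 against 23.7, 52.6 and 24.6 CPM.

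Receptor signalling genes gave medians close to 0, 0.00 for the machinery of the T cell receptor and 0.09 for genes of negative selection and strong signals. Pdcd1, the checkpoint receptor PD-1, stood at 382, 189 and 348 against 113, 139 and 253 CPM (0.87 ± 0.40) and Tnfrsf9, the costimulatory receptor 4-1BB, at 340.2, 347 and 362 against 302, 199 and 175 CPM (0.63 ± 0.32). The SOD1 libraries of Tnfrsf9 were nearly level and all above WT, whereas WT 3 overlapped SOD1 2 for Pdcd1. Immediate early genes had a median of -0.37 with 7 of 29 positive, and 0 of 29 had an unadjusted p under 0.05. Nr4a1, an early gene of receptor signalling, stood at 91.5, 53.5 and 218 against 43.9, 207 and 288 CPM. It was lower in columns 1 to 3 than in columns 4 to 6 in both genotypes, and with the column set as a covariate the list's median was -0.05. Helper cytokines and lineage factors had a median of -0.62 (2 of 17 positive), with Tnf at 10.3, 7.72 and 7.40 against 32.0, 73.9 and 4.48 CPM (-2.13 ± 0.81) and Bcl6 at 29.6, 28.1 and 33.3 against 21.9, 69.9 and 142 CPM (-1.35 ± 0.60). WT 3 was below each SOD1 library for Tnf and WT 1 was below each for Bcl6. Cytokine receptor and signal genes had a median of -0.20, and Jak1, a kinase of these receptors, stood at 1120.3, 1613 and 1377 against 1029, 535 and 820.4 CPM (0.79 ± 0.32). Treg markers had a median of 0.24, which turned to -0.11 with the set as a covariate, and Foxp3 was at 18.0, 16.5 and 19.1 against 8.89, 18.6 and 7.83 CPM.

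**Figure D3:**
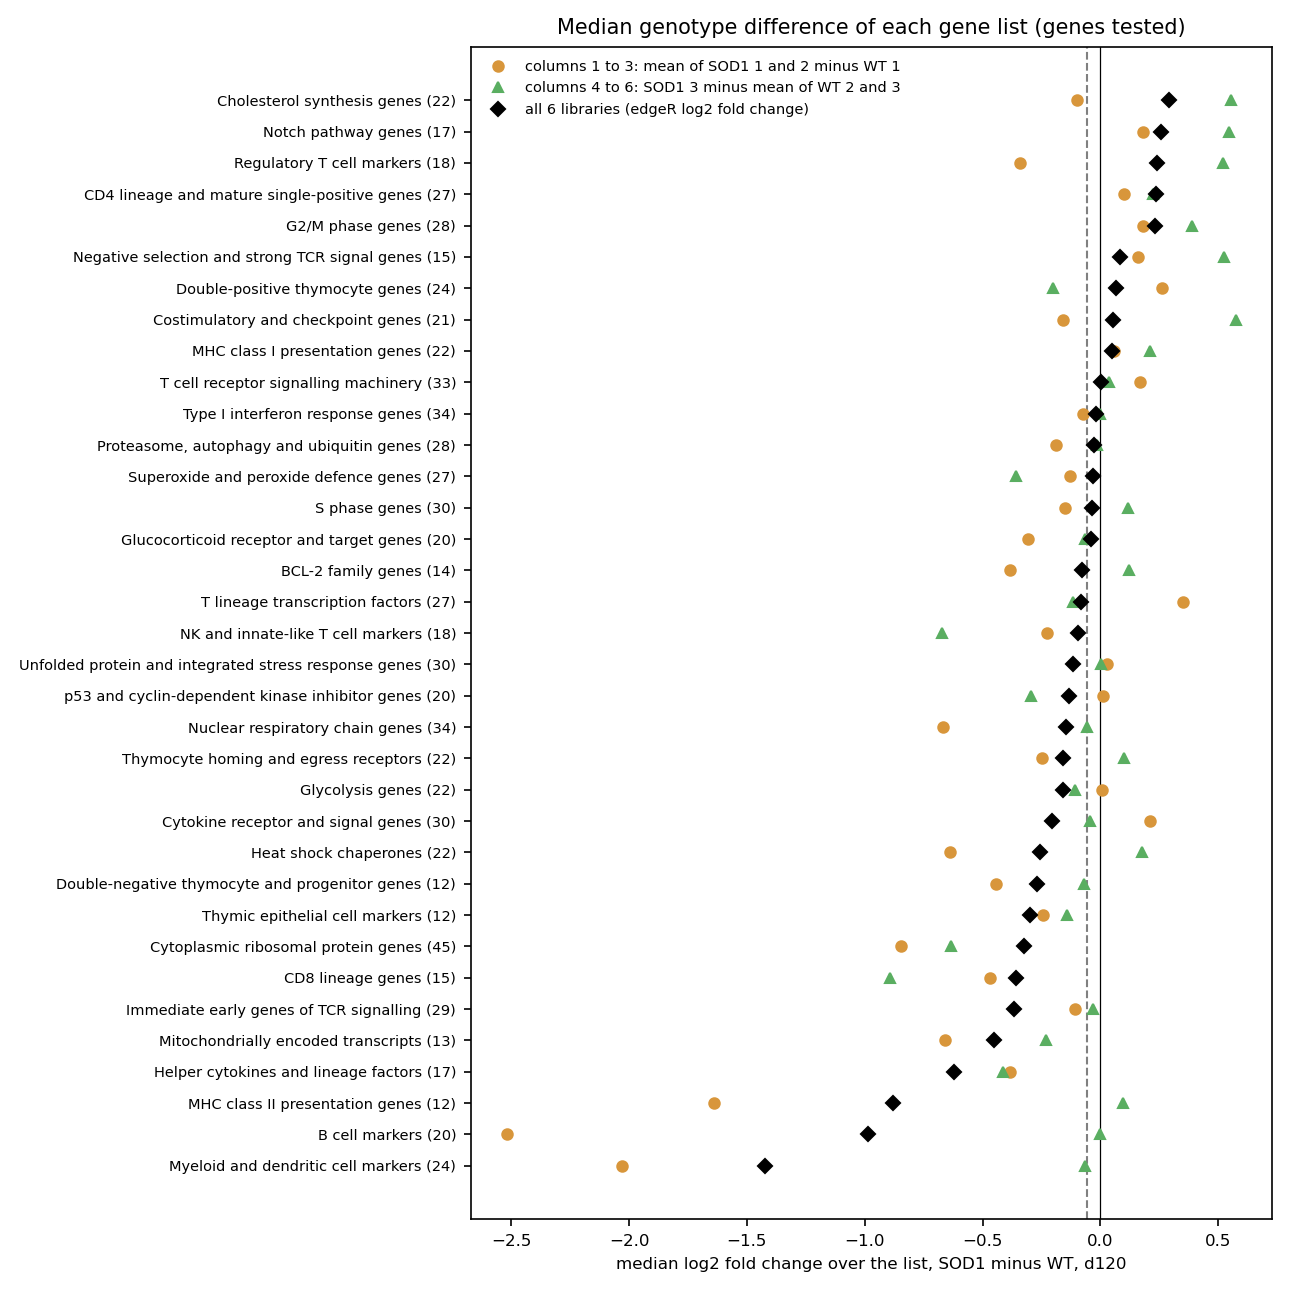
Median log2 fold change of SOD1 over WT in CD4 libraries of d120 for each list with 10 or more tested genes (number in brackets), with black diamonds for all 6 libraries, orange circles for columns 1 to 3, green triangles for columns 4 to 6 and a dashed line at the median of all genes, -0.06. Markers of myeloid cells, B cells and MHC class II lie far to the left in columns 1 to 3 and near 0 in columns 4 to 6. For B cells the value in columns 4 to 6 is that of genes without a count there.

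Among lists with 10 or more tested genes, those of myeloid cells, B cells and MHC class II lay furthest from the median of all genes. The median was -1.42 for myeloid and dendritic cell markers (2 of 24 positive), -0.99 for B cell markers (2 of 20) and -0.88 for MHC class II genes (0 of 12). In bulk RNA fewer cells of a type and less RNA per cell cannot be told apart. The summed level of the B cell list was 2008, 4380.1 and 3199 CPM in SOD1 1 to 3 and 11446, 2528 and 843 CPM in WT 1 to 3. WT 1 held the highest level and WT 3 the lowest of all 6, so the groups overlapped. Igkc, the kappa light chain, stood at 1392, 2979.7 and 1872 against 8273, 1631 and 233 CPM and Cd79a, part of the B cell receptor, at 1.93, 45.8 and 18.5 against 106, 94.2 and 0 CPM. Pax5, the B lineage factor, was at 0.644, 0 and 0 CPM in SOD1 and 34.4, 11.5 and 0 in WT (-6.06 ± 1.80). WT 3 had no count of Cd79a, Pax5 or Ms4a1.

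The summed level of myeloid and dendritic markers was 421, 1017 and 771 CPM in SOD1 and 2209, 2092 and 394 CPM in WT. WT 1 and WT 2 were high, and WT 3 was again the lowest of the 6. Lyz2, a lysozyme of macrophages, stood at 40.6, 6.62 and 0 against 9.48, 386 and 0 CPM and Cst3, abundant in dendritic cells, at 129, 388 and 291 against 1061, 451 and 87.3 CPM. Lyz2 was thus highest in WT 2 and Cst3 in WT 1. MHC class II genes summed to 1386, 3036 and 4778 CPM in SOD1 and 7554, 7118 and 2913 CPM in WT, with Cd74, the invariant chain, at 519, 1129.6 and 2267 against 2713, 3629.8 and 1273 CPM (-0.96 ± 0.54) and H2-Aa at 192, 574 and 629 against 1478, 924 and 419.7 CPM (-1.02 ± 0.56). Within columns 1 to 3 the medians of the myeloid, B cell and class II lists were -2.03, -2.52 and -1.64, and within columns 4 to 6 they were -0.06, 0.00 and 0.10. The 0.00 of the B cell list is the value of genes without a count in columns 4 to 6, such as Fcer2a. It does not show that B cell genes were level between the genotypes there. Without WT 1 they were -0.91, -0.08 and -0.55, and without WT 2 the myeloid median was -0.76. None of these genes passed with the filter on low counts. With no such filter edgeR called 105 genes, 43 higher and 62 lower in SOD1. Lyz2, highest in WT 2, was among the lower ones (log2 fold change -3.08, Benjamini-Hochberg adjusted p = 1.87e-05). The part of these cells in the other differences was not tested.

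**Figure D4:**
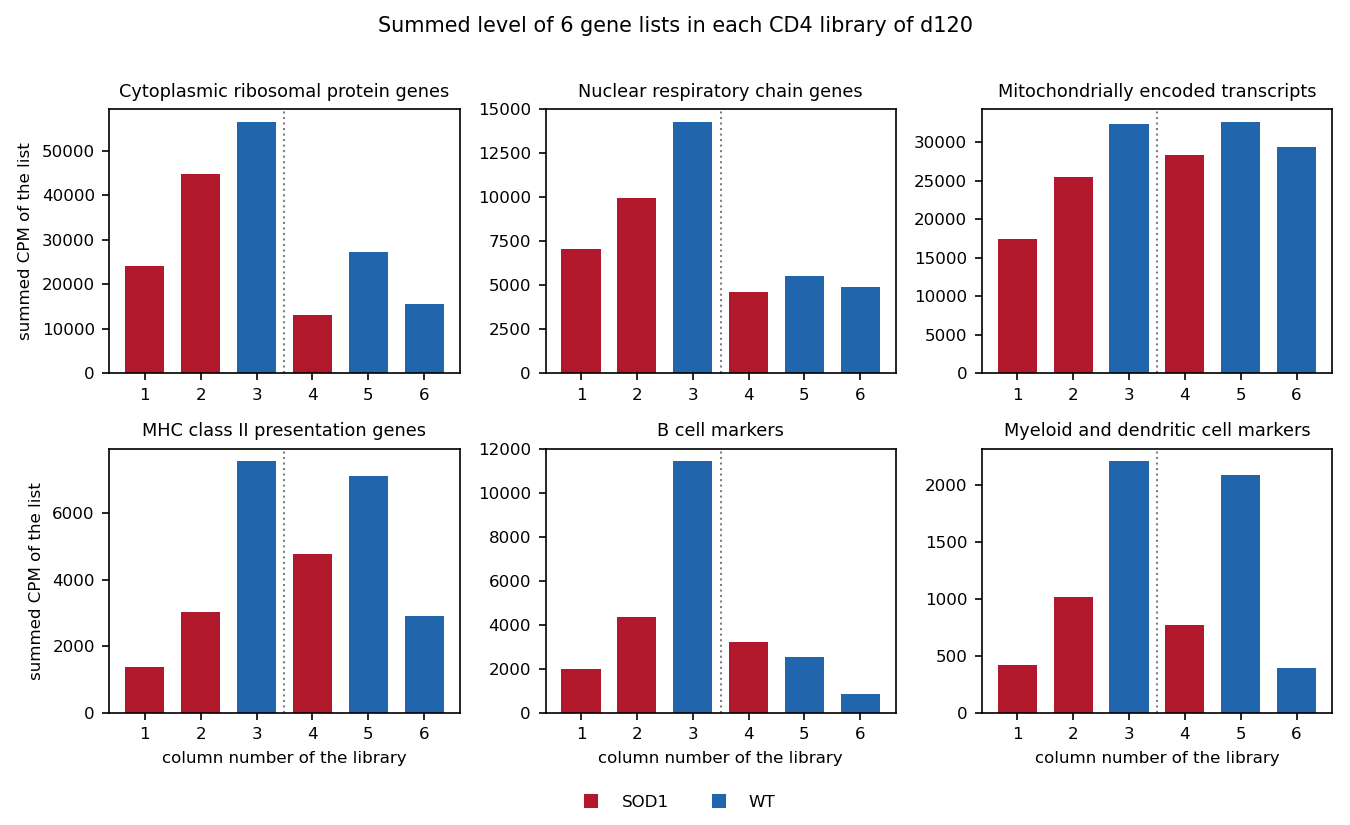
Summed CPM of 6 gene lists in each CD4 library of d120, by column number on the horizontal axis, with SOD1 in red and WT in blue and a dotted line between columns 3 and 4. Nuclear respiratory chain genes are higher in each of columns 1 to 3 than in any of columns 4 to 6, and B cell markers are highest in the WT library of column 3.

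In the fit with the d30 libraries, cytoplasmic ribosomal protein and nuclear respiratory chain genes lay lower in columns 4 to 6. Fitted together with genotype, the set had an effect past the threshold for 622 genes (4.98%), of which 135 were higher in columns 4 to 6 (1.08%) and 487 lower (3.9%). On the same 11 libraries DESeq2 called 1931 and limma voom 0, the latter with 2060 at an unadjusted p under 0.05. In the 2 groups of d120 fitted alone 0 passed with edgeR, with 1641 at an unadjusted p under 0.05. Of 45 cytoplasmic ribosomal protein genes 30 were lower in columns 4 to 6 and 0 higher, and the list's median was -1.53. Their summed level was 24015, 44824 and 13187 CPM in SOD1 1 to 3 and 56478, 27282 and 15650.5 CPM in WT 1 to 3. WT 1 and SOD1 2 were highest, and SOD1 3 and WT 3 lowest. WT 2, of columns 4 to 6, lay above SOD1 1, of columns 1 to 3, so by this sum the sets overlapped. Rpl38, of the large subunit, stood at 198, 473 and 109.7 against 824, 298 and 184 CPM. Of 34 nuclear genes of the respiratory chain 14 were lower in columns 4 to 6 and 0 higher, with a median of -1.27. Among them were Ndufa4 at 175, 292 and 81.4 against 618, 163 and 156 CPM and Cox6c at 167, 355 and 127 against 622, 178 and 213 CPM.

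Between genotypes the ribosomal list had a median of -0.33 (5 of 45 positive), which became -0.75 with the set as a covariate and 0.34 without WT 1. The respiratory chain list had -0.15, -0.43 and 0.51 in the same 3 fits. Without SOD1 3 they were 0.00 and 0.09. Both lists changed sign with 1 library, so no genotype direction can be given for them. Of the protein-coding transcripts of mitochondrial DNA 0 of 13 were positive, with a median of -0.45 and -0.62 to -0.27 over the 16 alternative fits. Their summed level was 17449, 25544 and 28305 CPM in SOD1 and 32431, 32671 and 29372 CPM in WT, and every SOD1 library lay below every WT library. mt-Cytb, of complex III, stood at 2109, 3039 and 3946 against 3998, 4946 and 4324 CPM (-0.55 ± 0.34) and mt-Atp6, of ATP synthase, at 4488, 6672 and 6015 against 8985, 7935 and 6784 CPM (-0.46 ± 0.30). None of the 13 protein-coding transcripts passed, with the smallest unadjusted p at 0.111, and the set effect passed for 0 of them. The ribosomal RNAs of mitochondrial DNA, which the list leaves out and which are named after their values were seen, lay on the other side. mt-Rnr1 stood at 926, 2493 and 212 against 437, 403 and 344 CPM (1.62 ± 0.60, edgeR adjusted p = 0.738, Benjamini-Hochberg) and mt-Rnr2 at 5130.1, 17171 and 4598 against 8554, 5935 and 3549 CPM (0.58 ± 0.47). SOD1 2 was the highest library for both, and SOD1 3 was the lowest for mt-Rnr1. With no filter on low counts mt-Rnr1 passed (log2 fold change 1.64, adjusted p = 0.0105). Mitochondrial transcripts share precursor RNAs and are not independent. The median of the 13 was 0.10 in CD4 libraries of d30 and -0.50 in Treg libraries of d120. The share of all counts that was mitochondrial, a measure also used for RNA quality, was 2.36, 3.99 and 3.44% in SOD1 1 to 3 and 3.13, 4.08 and 3.56% in WT 1 to 3. By this share the groups overlapped, with SOD1 2 above WT 1 and WT 3.

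Of the lists tied to the SOD1 enzyme and to misfolded protein, all but the heat shock chaperones had medians near that of all genes. The superoxide and peroxide defence list, without Sod1, had a median of -0.03 (10 of 27 positive). Sod2, the mitochondrial dismutase, stood at 79.2, 136 and 80.8 against 197, 102 and 146 CPM (-0.59 ± 0.37), Cat, catalase, at 54.1, 54.1 and 46.9 against 50.4, 48.2 and 77.2 CPM and Gpx1, a glutathione peroxidase, at 220.3, 386 and 226 against 633, 203 and 157 CPM. WT 1 was highest for Sod2 and Gpx1. Heat shock chaperones had a median of -0.26 (5 of 22 positive), with Hspe1, a mitochondrial chaperonin, at 209, 568 and 294 against 1988, 551 and 210.4 CPM (-1.36 ± 0.63) and Hsp90aa1 at 1276, 2574 and 1578 against 4790.4, 1763 and 1051 CPM. Both were highest in WT 1, and without it the median was -0.07. Genes of the unfolded protein response had a median of -0.12 and 0 of 30 had an unadjusted p under 0.05. Its factor Atf4 had a log2 fold change of -0.01 ± 0.28 and its chaperone Hspa5 of -0.05 ± 0.33. Herpud1, of degradation at the endoplasmic reticulum, stood at 179, 95.4 and 129 against 208, 197 and 208 CPM (-0.60 ± 0.34) without overlap. Proteasome, autophagy and ubiquitin genes had a median of -0.03, with the autophagy receptor Sqstm1 at 0.01 ± 0.28 and Vcp, an unfoldase mutated in some ALS families, at -0.20 ± 0.35.

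No cell cycle gene of the lists passed. Of the G2/M list 15 of 28 were positive, with a median of 0.23, and 4 of 28 had an unadjusted p under 0.05. Cenpe, a motor protein of the kinetochore, stood at 24.5, 35.9 and 52.4 against 17.2, 3.10 and 2.24 CPM (2.28 ± 0.65), without overlap, and Cdc20, the activator of the anaphase-promoting complex, at 76.0, 32.5 and 68.4 against 11.3, 7.96 and 39.2 CPM (1.67 ± 0.56). For Cdc20 WT 3 lay above SOD1 2. Mki67, the usual marker of cycling cells, stood at 104, 87.7 and 98.0 against 43.9, 117 and 139.9 CPM (-0.05 ± 0.40), and the median turned to -0.02 without SOD1 1. Of the S phase list 14 of 30 were positive, with a median of -0.04 whose sign turned in 11 of 16 alternative fits, and with Mcm3, a subunit of the replicative helicase, at 72.2, 70.1 and 48.1 against 97.2, 90.7 and 95.1 CPM (-0.57 ± 0.30). Without WT 1 edgeR called 13 genes, all higher in SOD1. Besides Gm8566 and Sod1 these were Cenpe, Cenpf, Pggt1b, Kiz, Ints9, Timm17b, Cryzl1, Idi1, Vps35, Gk and Ifi214, named after their values were seen.

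The remaining lists gave medians between -0.30 and 0.29, apart from those with 2 tested genes. Glucocorticoid receptor targets had -0.04, with Fkbp5, a chaperone induced by the receptor, at 39.9, 33.6 and 18.5 against 51.0, 58.8 and 58.2 CPM (-0.87 ± 0.40) without overlap, and Tsc22d3 at 0.17 ± 0.40. Type I interferon response genes had -0.02 and MHC class I genes 0.05. Costimulatory and checkpoint genes had 0.06, glycolysis genes -0.16 and thymic epithelial markers -0.30. Cholesterol synthesis genes had 0.29 (14 of 22 positive). Among BCL-2 family genes (median -0.08) the survival gene Bcl2l1 stood at 39.9, 28.1 and 38.8 against 14.8, 2.21 and 23.5 CPM (1.46 ± 0.64) and the death gene Bax at 157, 182 and 156 against 234, 199 and 197 CPM (-0.35 ± 0.29), both without overlap and without passing. In the p53 list (median -0.13) Phlda3 had no count in SOD1 and 25 counts in WT. Against a floor of 3 counts over the group it was at least 8.58-fold lower in SOD1. That bound allows for counting error and not for the spread between libraries, and the gene did not pass (edgeR adjusted p = 0.604, Benjamini-Hochberg).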

How the data were processed

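RNA-seq counts of sorted thymic cells were used as deposited by the authors, in 1 table of whole-number read counts per Ensembl gene (55487 genes). The submitters' processing notes name DESeq2 and the mm10 build. No source used here gives the aligner, the counter or the strand setting, so antisense and near-identical genes are uncertain. Symbols, coordinates and coding sequences came from GENCODE mouse release M21 (55094 genes with a symbol).

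All 11 CD4 libraries (4 groups of genotype and day) were fitted in R 4.3.3 with edgeR 4.0.16, using TMM scaling, filterByExpr by group, trended negative binomial dispersion, a quasi-likelihood dispersion per gene and glmQLFTest, with Benjamini-Hochberg adjustment over 12479 genes and a threshold of 0.05. The dispersion choice was settled after results were seen, since passing a negative binomial dispersion per gene made false calls on simulated counts. That version is kept as an added alternative. DESeq2 1.42.0 and limma 3.58.1 (voom with sample weights) were alternatives, beside other scaling, no filter, a shared dispersion, the column set as a covariate and leaving out each library. The difference from Treg used an interaction over the CD4 and Treg libraries of d120, and fold changes within Treg came from a fit of the Treg libraries of both days. Log2 CPM used a prior count of 2. Differences within a column set have no test. Counting error alone limits genes with few counts, at 837050 to 2239878 counts per library.

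Deviations of same-numbered CD4 and Treg libraries of d120 from their group means correlated at 0.102 to 0.245 in all 6 pairs across genes. Values for libraries of unlike numbers are not given, so whether the column numbers pair the libraries cannot be told from these. A block on the column number in that comparison gave 0 calls. Named genes were Sod1, Cd4, Cd8a, Cd8b1, every called gene, the 15 of each direction with the smallest p (5 CPM or more, groups apart, no predicted genes or receptor segments) and up to 4 members of each list plus its best-known member. Members and lists were chosen with earlier results of these data known. Some members of the lists and some sequences are not reported here.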

Additional observations from a re-analysis of the deposited data

How the results depend on the processing

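The count of genes called between genotypes at d120 was 1 as reported, and also 1 with median-of-ratios scaling, a shared dispersion, the column set as a covariate, the 2 groups fitted alone (with and without the set) and genes of 5 CPM or more. It was 40 with DESeq2, 0 with limma voom (531 at an unadjusted p under 0.05), 105 with no filter on low counts (29622 genes tested) and 21 with a negative binomial dispersion per gene. Leaving out 1 library gave 1 to 13. Gm8566 was called in 15 of 16 alternatives and Sod1 in 4. The day interaction, 0 as reported, had 3 calls with DESeq2, 28 with no filter, 2 with a dispersion per gene and 0 to 2 leaving out 1 library (2 without WT 3). The interaction with Treg, also 0, had 7, 54 and 2 in the same 3 settings and 0 leaving out each library. The column sets, with 622 calls, had 1931 with DESeq2, 0 with limma voom, 1672 with a dispersion per gene and 0 in the 2 groups alone. What caused these changes between fits was not tested. With the replicate number as a block (replicate block) the genotype comparison had 1 call. The same replicate numbers did not pair the CD4 libraries, whose deviations correlated at -0.024, -0.068 and 0.097. Iglc2, called with no filter (log2 fold change -3.60), was 0.13 without WT 1, and Cpa3 (-10.30 with no filter) was 0 there, where no library has a count of it. The depth of 837050 counts in WT 3 limits low genes most.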
